A study of Arabidopsis thaliana with 16 samples.

Results

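A set of 53 probe sets, of 22746 on the array after 64 controls were left out, was higher at 30 min after dawn than at 15 min before it in wild-type Arabidopsis thaliana seedlings and also in seedlings lacking the clock genes LHY and CCA1. The members were chosen by this rise itself: a difference of at least 0.8 log2 between the means of 2 arrays, in WS and in the mutant, with a mean signal of at least 40 at 30 min in both. Affymetrix ATH1 arrays were hybridised with RNA of whole seedlings, 1 array per sample and 16 in all. The wild type was the Wassilewskija (WS) accession, and the mutant, written lhy cca1 here, was the double mutant lhy-21; cca1-11 in that background. All seedlings were 9 days old and were grown at 22 °C on agar with 3% sucrose in days of 18 h light and 6 h dark, under cool white light of 60 to 65 µE, after 4 days of cold in the dark. Collection times in each genotype were 15 min ahead of dawn, then 15, 30 and 60 min past dawn, at 2 arrays per genotype and time. No seedlings were kept dark past dawn, so an effect of light and an effect of time of day cannot be told apart, and in whole seedlings a change in RNA per cell and a change in the share of a cell type cannot be told apart either. No label gives the replicates as separate cultures, so the spread between them may be technical.

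At dawn, light reaches phytochromes and cryptochromes, the photoreceptors for red and blue light, which release transcription factors such as HY5 from degradation and switch on a first wave of genes within minutes. Early light-induced transcripts of seedlings commonly encode signalling proteins that dampen the same photoreceptor pathways, transcription factors, protective enzymes and proteins of cell walls and growth. LHY and CCA1 are related transcription factors made around dawn that repress evening genes of the circadian clock.

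The arrays had a common trimmed mean of 100, medians between 33.6 and 38.3, and replicate correlations between 0.961 and 0.981 across tested probe sets. The control probe set for 25S ribosomal RNA was highest on the 4 lhy cca1 replicate 2 arrays, at 8.01 to 9.15 log2 against 5.97 to 7.98 on the lhy cca1 replicate 1 arrays and 5.85 to 7.35 in WS. The lowest of these 4, at 60 min, lay next to replicate 1 at 15 min, so they do not form a separate group. Calls on members in lhy cca1 that were lost without those 4 arrays are therefore named. Some of the counts and medians that use this genotype are also given without them, and the others with all arrays only. LHY and CCA1 themselves were not analysed here, so the genotype labels were not checked against their transcripts, and of 13 markers of green tissue and root only the root hair gene EXPA7 was paired with a probe set, at 1.39 to 40.4. A signal at or below the 40th percentile of its array (19.1 to 22.0) on both arrays of a group is called dim, and a difference from it is given as a lower bound.

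The annotation listed 1 gene for 19 of the 53 members, which are 19 different genes, several genes for 1 (245219_at) and none for 33, which are called by their probe set identifiers. Among the 19 genes, 4 encode regulators of signalling. AT3G44450 and AT3G52740 encode related small proteins that bind and inhibit blue-light-activated cryptochromes, PUB19 encodes a U-box ubiquitin ligase of drought and abscisic acid responses, and AT3G62260 encodes a protein phosphatase of type 2C. Transcription factors were represented by GIS, a C2H2 zinc finger protein that promotes trichome formation downstream of gibberellin, and AT2G44940, of the AP2/ERF family. Metabolic enzymes were represented by AT5G15950, an S-adenosylmethionine decarboxylase of polyamine synthesis, AT5G42760, of the leucine carboxyl methyltransferase family, AT2G40230, of a family of acyltransferases, and AT3G48460, of the GDSL esterase and lipase family. AT1G48100, a polygalacturonase that cuts wall pectin, AT1G65870, a dirigent-like protein, and AT1G05170, of a galactosyltransferase family, belong to families that act on cell walls or secreted products. AT3G14200 encodes a protein with the DnaJ domain of co-chaperones, AT4G33040 a glutaredoxin-like protein, AT1G80130 a protein with tetratricopeptide-like repeats and AT2G19650 a protein with a cysteine- and histidine-rich C1 domain. No role is given for AT3G23170 and AT2G15020. The roles were sorted by hand, with no share over all tested probe sets, so no class can be called frequent among members. A keyword search of gene names for function groups matched 1 of the 19, PUB19, against 4% of 8049 tested probe sets with 1 gene. No 2 of the 19 genes are neighbours in the reference gene order.

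All 53 members had each of the 4 arrays at 30 min above both arrays before dawn of its own genotype. The rule used these same arrays and makes this likely. No share over all tested probe sets is given, so the separation adds no support to the rise. The median rise by 30 min was 1.32 log2 in WS and 1.21 in lhy cca1, or 1.3 and 1.19 with the 4 members that were dim before dawn set to their bounds. A rise of at least 1 log2 in both genotypes was met by 32 members and of at least 2 log2 by 6. The rule is a cut through a continuous range: the members nearest to it were AT2G40230 (0.803 in WS and 0.988 in lhy cca1), 252516_at (0.816 and 0.953) and 256069_at (0.826 and 1.294), and just outside lay 253872_at (0.798 and 0.966), 257771_at (0.779 and 1.503) and AT1G04000 (0.758 and 1.117). Of 10538 probe sets bright enough at 30 min in both genotypes, 92 met the fold in WS and 104 in lhy cca1, and the 53 members are those that met it in both. On the replicate 1 arrays alone the rule chose 48 probe sets, 39 of them members, and on the replicate 2 arrays alone 63, of which 47 were members. Without the 4 lhy cca1 replicate 2 arrays it chose 48 probe sets, 44 of them members.

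**Figure D1:**
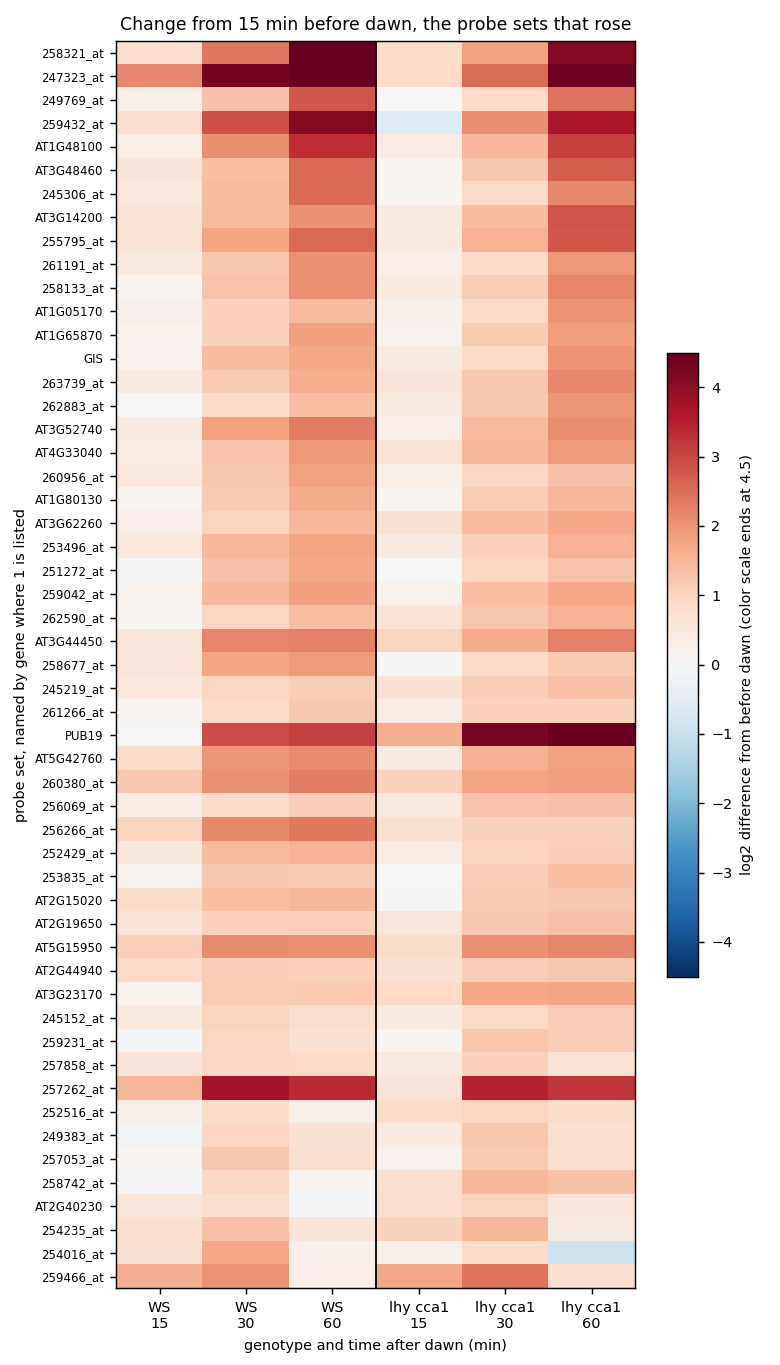
Color shows the log2 difference of each group mean from the mean 15 min before dawn of the same genotype, for 53 probe sets (rows, ordered by the change from 30 to 60 min) at 15, 30 and 60 min in WS (left) and lhy cca1 (right). The columns at 30 min are red throughout because members were chosen on that difference, and at 60 min the upper rows are darker while the bottom rows are pale.

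Most of the rise came after 15 min. At 15 min the median difference from before dawn was 0.46 log2 in WS and 0.43 in lhy cca1 (0.35 and 0.41 with members dim before dawn at their bounds), and the median member had made 32.2% of its 30 min rise in WS and 36.2% in lhy cca1 (34.3% without the 4 lhy cca1 replicate 2 arrays). These shares use the before-dawn and 30 min arrays, which chose the members, so they may be biased and are given without a test. In both genotypes 5 members had made at least 50% of the rise by 15 min: 259466_at, 260380_at, 254235_at, AT2G44940 and AT2G40230. At the other end 7 members had made less than 20% of it in both.

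What followed the rise is described here from all arrays, without a test. A member was said to go on where its mean at 60 min was at least 0.5 log2 above that at 30 min, to turn back where it was at least 0.5 below, and otherwise to stay. In WS, 16 members went on, 31 stayed and 6 turned back, and in lhy cca1 19 went on, 31 stayed and 3 turned back. The median change from 30 to 60 min was 0.28 log2 in WS and 0.32 in lhy cca1, against -0.03 over all tested probe sets in each. A step up of at least 0.5 was seen in 30.2% of members in WS and 35.8% in lhy cca1 (5.69% and 4.93% of all tested), and a step down of that size in 11.3% and 5.66% (6.97% and 6.22% of all tested). Members had to be bright at 30 min. Of the 10538 tested probe sets as bright at 30 min in both genotypes, 3% in WS and 2.68% in lhy cca1 stepped up. In the same probe sets 5.37% and 4.58% stepped down. The arrays at 30 min helped to choose the members, so no test is given for this change.

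Both 60 min arrays lay above both 30 min arrays for 29 members in WS and 27 in lhy cca1, where 16.9% and 17.7% of all tested probe sets did so. They lay below for 7 members in WS and 8 in lhy cca1, where 22.2% and 22.4% of all tested did so. These counts need both replicates and are not given without the lhy cca1 replicate 2 arrays. All 16 and 19 members that went on were separated in this way, as were all 3 that turned back in lhy cca1 and 5 of 6 in WS, the exception being 252516_at. Under the mirror image of the rule, 106 probe sets fell by 30 min. Their median change from 30 to 60 min was -0.05 in WS and -0.24 in lhy cca1, where a negative value continues the fall. A further step down of at least 0.5 was seen in 19.8% of them in WS and 29.2% in lhy cca1, and a step up in 17% and 10.4%. The 30 min arrays chose these probe sets too, so no test is given.

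**Figure D2:**
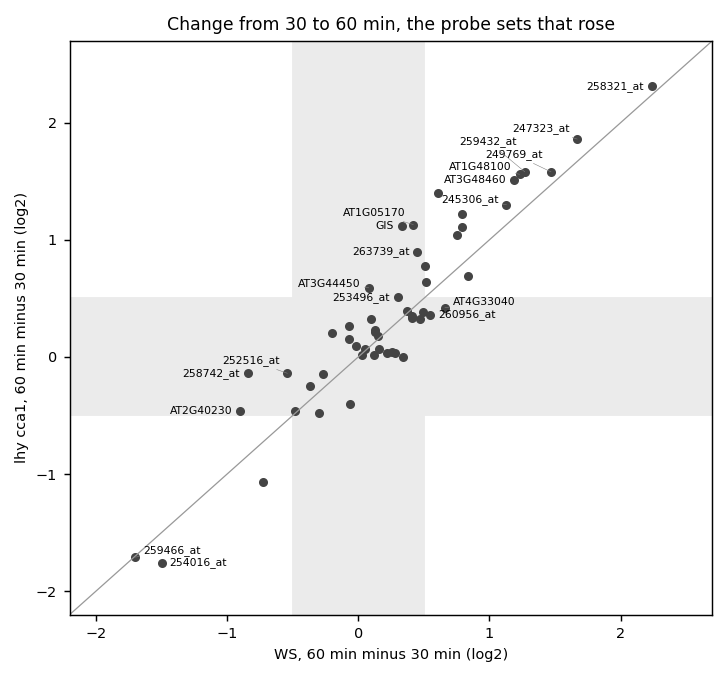
Each point is 1 of 53 probe sets, with the change from 30 to 60 min in WS on the x axis and in lhy cca1 on the y axis (log2, means of 2 arrays). The line marks equal change and the grey bands changes of less than 0.5. Points lie along the line, with 14 in the upper right (went on in both genotypes) and 3 in the lower left (turned back in both).

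The classes largely coincided between genotypes: 14 members went on in both, 26 stayed in both and 3 turned back in both, and no member went on in one genotype and turned back in the other. The change from 30 to 60 min correlated at r = 0.93 (Spearman's rho 0.90) between the genotypes over the 53 members, or 0.92 (0.85) without the 4 lhy cca1 replicate 2 arrays. This is a description in which both values of a probe set share its brightness and probes. The 30 min arrays also chose the members for a rise in both genotypes, and no correlation over all tested probe sets is given. AT4G33040 and 260956_at went on in WS and stayed in lhy cca1, and AT3G44450, 253496_at, 263739_at, GIS and AT1G05170 stayed in WS and went on in lhy cca1. 258742_at, AT2G40230 and 252516_at turned back in WS and stayed in lhy cca1. Without the 4 lhy cca1 replicate 2 arrays, 20 members went on, 29 stayed and 4 turned back in that genotype, with a median change of 0.36 log2. The number that turned back in lhy cca1 was 3 with all arrays but lay between 4 and 6 when any 1 array at 30 or 60 min was left out, reaching 5 without replicate 1 at 30 min or at 60 min, and 6 without replicate 2 at 60 min.

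The arrays at 15 and 60 min had no part in choosing the members, so the change between them was tested. It spans the gain from 15 to 30 min as well as what came after, so a member that rose between 15 and 60 min may have stayed or dropped after 30 min, like 257053_at (0.63 log2 from 15 to 60 min and -0.48 from 30 to 60 min in WS). limma compared 60 min with 15 min in each genotype, with p-values adjusted over all 14878 tested probe sets and a threshold of 0.05. In WS, 40 of the 53 members rose, 1 fell and 12 did not pass, while 2.71% of all tested probe sets rose and 4.21% fell. In lhy cca1, 38 rose, 2 fell and 13 did not pass, where 3.18% of all tested rose and 4.11% fell. The median difference over members was 1.28 log2 in WS and 1.25 in lhy cca1, against -0.03 over all tested in each. With each array centred on its median, 51% of all calls in WS were rises instead of 39.1% (499 rises and 479 falls against 403 and 627), and in lhy cca1 52.8% instead of 43.6% (561 and 501 against 473 and 611). With this centring 41 members rose in each genotype. Without the 4 lhy cca1 replicate 2 arrays 39 members rose in WS and 26 in lhy cca1, where none then fell. Leaving out 1 array at a time gave 31 to 39 rising members in WS and 29 to 34 in lhy cca1. All 53 members passed the filter on low values, also when it was set on the 15 and 60 min arrays alone (14550 probe sets tested).

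**Figure D3:**
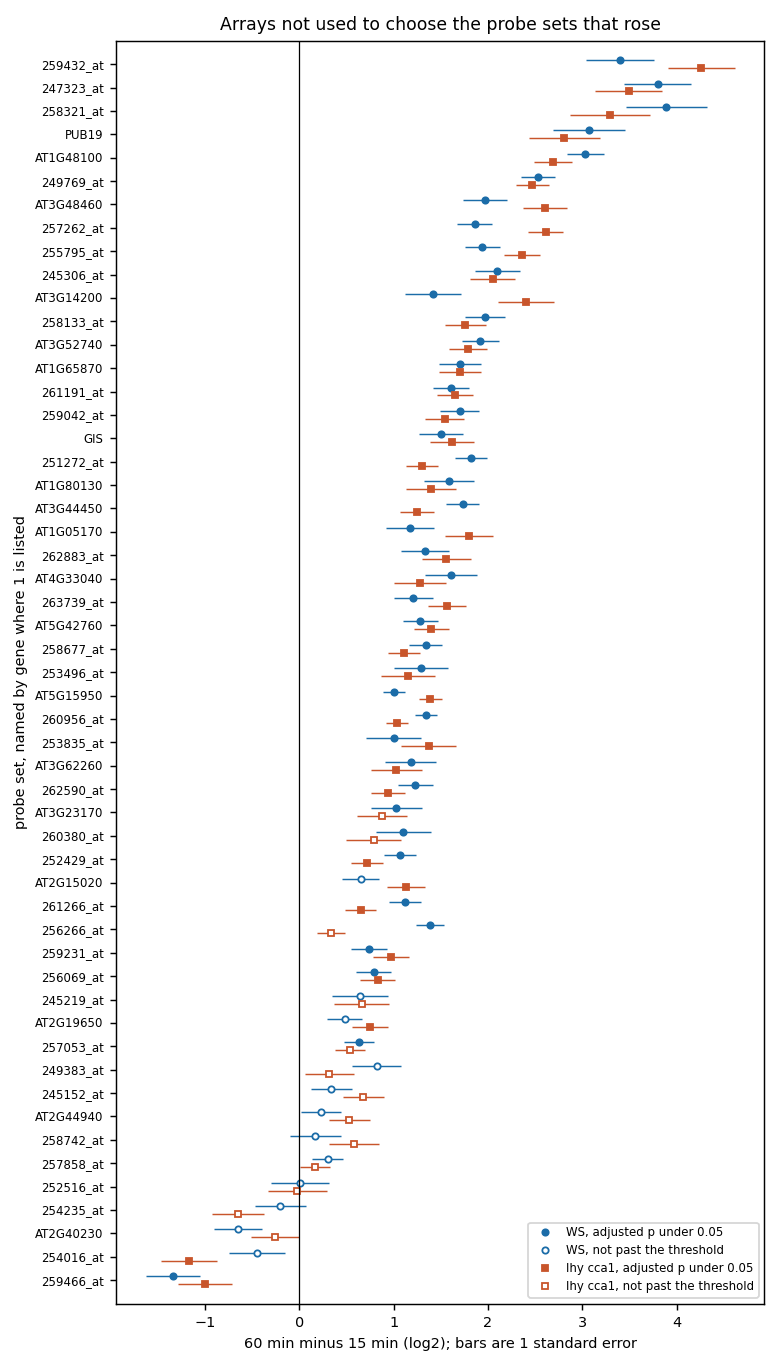
The difference between 60 and 15 min (log2, x axis) is shown for each of 53 probe sets in WS (circles) and lhy cca1 (squares), with bars of 1 standard error from limma and filled symbols for an adjusted p under 0.05. In WS 40 filled circles lie right of 0 and 1 left of it, and in lhy cca1 38 filled squares lie right and 2 left, with 259432_at at its fitted value although it was dim at 15 min.

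In the gene accounts that follow, signals are linear, each pair of values is replicate 1 and replicate 2, differences are log2 with the standard error of limma after ±, and every adjusted p is from limma.

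The genes for both cryptochrome inhibitors were among the members. AT3G44450 read 27.6 and 24.7 before dawn, 39.6 and 37.05 at 15 min, 115 and 125 at 30 min, then 127 and 126 at 60 min on the WS arrays. In lhy cca1, AT3G44450 read 35.7 and 39.1 before dawn, 88.2 and 63.7 at 15 min, 110.4 and 127 at 30 min, then 159.7 and 199 at 60 min. In WS most of the gain lay between 15 and 30 min and the level then held, while in lhy cca1 both 15 min arrays already lay above those of WS and both 60 min arrays lay above those at 30 min. AT3G44450 rose by 1.73 ± 0.179 log2 from 15 to 60 min in WS (adjusted p = 1.28e-05) and by 1.25 ± 0.179 in lhy cca1 (adjusted p = 0.000228). AT3G44450 did not pass in lhy cca1 without the 4 replicate 2 arrays of that genotype (adjusted p = 0.11). AT3G52740, the related inhibitor gene, went on in both genotypes. AT3G52740 read 51.2 and 39.1 before dawn, 70.4 and 49.6 at 15 min, 174 and 139.8 at 30 min, then 259 and 194 at 60 min on the WS arrays. In lhy cca1, AT3G52740 read 40.2 and 44.6 before dawn, 53.6 and 50.2 at 15 min, 109 and 122 at 30 min, then 188 and 171 at 60 min. The arrays at 60 min lay above those at 30 min in each genotype, and no array at 15 min reached any at 30 min. AT3G52740 rose by 1.92 ± 0.2 log2 from 15 to 60 min in WS (adjusted p = 1.3e-05) and by 1.79 ± 0.2 in lhy cca1 (adjusted p = 2.46e-05). AT3G52740 is outside the rule for fully described genes and was singled out after its values were seen, for its likeness in role to AT3G44450.

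PUB19, the ubiquitin ligase gene, gained nearly all of its rise in WS after 15 min. PUB19 read 46.5 and 44.1 before dawn, 46.99 and 43.4 at 15 min, 347 and 336 at 30 min, then 332 and 432 at 60 min on the WS arrays. In lhy cca1, PUB19 read 26.3 and 6.91 before dawn, 44.7 and 39.4 at 15 min, 253 and 266 at 30 min, then 252 and 343 at 60 min. In WS the arrays at 15 min overlapped those before dawn, whereas all 4 arrays at 30 min lay far above all 4 at 15 min. In lhy cca1 the before-dawn arrays differed widely from each other, and 1 of them was below its 40th percentile, so the large mean rise of 4.27 log2 there rests partly on that array. PUB19 rose by 3.07 ± 0.377 log2 from 15 to 60 min in WS (adjusted p = 5.28e-05) and by 2.81 ± 0.377 in lhy cca1 (adjusted p = 0.000127). From 30 to 60 min it changed by 0.15 log2 in WS and 0.18 in lhy cca1.

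AT5G15950, the S-adenosylmethionine decarboxylase gene, was higher at each time up to 30 min and then stayed. AT5G15950 read 218 and 209.6 before dawn, 464 and 433 at 15 min, 893 and 982 at 30 min, then 906 and 883 at 60 min on the WS arrays. In lhy cca1, AT5G15950 read 211 and 205 before dawn, 360.0 and 374 at 15 min, 922 and 815 at 30 min, then 1024 and 900.0 at 60 min. Its replicates were close, and in each genotype neither 15 min array overlapped the arrays before dawn or at 30 min. AT5G15950 rose by 1.00 ± 0.118 log2 from 15 to 60 min in WS (adjusted p = 3.8e-05) and by 1.39 ± 0.118 in lhy cca1 (adjusted p = 1.84e-06). AT5G42760, of the methyltransferase family, had a similar course at different levels in the genotypes. AT5G42760 read 106 and 124 before dawn, 192 and 219 at 15 min, 456 and 456 at 30 min, then 473 and 526 at 60 min on the WS arrays. In lhy cca1, AT5G42760 read 82.6 and 81.4 before dawn, 119 and 98.3 at 15 min, 259.7 and 233 at 30 min, then 362 and 224 at 60 min. At 15 and 30 min, and also before dawn, every lhy cca1 array lay below every WS array, and at 60 min both did again. AT5G42760 rose by 1.28 ± 0.185 log2 from 15 to 60 min in WS (adjusted p = 0.000233) and by 1.40 ± 0.185 in lhy cca1 (adjusted p = 0.00011).

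AT1G48100, the polygalacturonase gene, AT3G48460, of the lipase family, and the dirigent-like AT1G65870 went on after 30 min in both genotypes. AT1G48100 read 28.8 and 39.8 before dawn, 37.5 and 46.6 at 15 min, 134 and 157 at 30 min, then 314 and 370.0 at 60 min on the WS arrays. In lhy cca1, AT1G48100 read 29.3 and 37.8 before dawn, 40.6 and 45.95 at 15 min, 97.2 and 91.9 at 30 min, then 313 and 248 at 60 min. The 15 min arrays overlapped those before dawn in WS and lay just above them in lhy cca1, and each later time was higher again. AT1G48100 rose by 3.03 ± 0.198 log2 from 15 to 60 min in WS (adjusted p = 1.47e-07) and by 2.69 ± 0.198 in lhy cca1 (adjusted p = 4.48e-07). AT3G48460 was brightest at 60 min. AT3G48460 read 125 and 178 before dawn, 217 and 231 at 15 min, 355 and 418 at 30 min, then 776 and 997 at 60 min on the WS arrays. In lhy cca1, AT3G48460 read 91.99 and 74.5 before dawn, 117 and 69.2 at 15 min, 218 and 168 at 30 min, then 604 and 493 at 60 min. The arrays at 60 min stood clear of those at 30 min in each genotype, and lhy cca1 was below WS at every time. AT3G48460 rose by 1.97 ± 0.232 log2 from 15 to 60 min in WS (adjusted p = 3.64e-05) and by 2.60 ± 0.232 in lhy cca1 (adjusted p = 2.83e-06). AT1G65870 differed in level between the genotypes throughout. AT1G65870 read 46.8 and 48.4 before dawn, 47.4 and 59.5 at 15 min, 87.99 and 106 at 30 min, then 163 and 183 at 60 min on the WS arrays. In lhy cca1, AT1G65870 read 24.7 and 20.04 before dawn, 31.6 and 20.04 at 15 min, 52.99 and 48.3 at 30 min, then 92.1 and 72.4 at 60 min. The 60 min arrays again lay above the 30 min arrays in each genotype, with every lhy cca1 array below every WS array of its time. AT1G65870 rose by 1.70 ± 0.221 log2 from 15 to 60 min in WS (adjusted p = 8.94e-05) and by 1.70 ± 0.221 in lhy cca1 (adjusted p = 9.75e-05).

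AT2G40230, of the acyltransferase family, turned back in WS. AT2G40230 read 32.8 and 31.9 before dawn, 54.5 and 41.5 at 15 min, 52.7 and 60.4 at 30 min, then 21.8 and 42.1 at 60 min on the WS arrays. In lhy cca1, AT2G40230 read 27.9 and 27.6 before dawn, 47.3 and 49.1 at 15 min, 51.8 and 58.5 at 30 min, then 41.9 and 38.4 at 60 min. In WS both 60 min arrays were below both 30 min arrays, while in lhy cca1 the step down of -0.46 log2 stayed short of the limit. AT2G40230 differed by -0.65 ± 0.252 log2 from 15 to 60 min in WS (adjusted p = 0.155) and by -0.26 ± 0.252 in lhy cca1 (adjusted p = 0.652).

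The other 10 members with a gene are named here only to complete the account, outside the rule for fully described genes. GIS, the trichome regulator, rose from 15 to 60 min by 1.5 ± 0.234 in WS and 1.62 ± 0.234 in lhy cca1 (adjusted p = 0.000497 and 0.00025), while AT2G44940, the AP2/ERF gene, did not pass in either (0.23 and 0.53, adjusted p = 0.65 and 0.181). AT2G44940 had made most of its rise by 15 min and stayed. AT1G05170 rose by 1.17 ± 0.253 log2 from 15 to 60 min in WS (adjusted p = 0.00804) and by 1.80 ± 0.253 in lhy cca1 (adjusted p = 0.000201). AT1G05170 lost its WS call without 15 min WS replicate 1 (adjusted p = 0.119) or 60 min WS replicate 1 (0.052). AT3G14200, the DnaJ-domain gene, was dim before dawn and was at least 2.17-fold higher at 30 min in WS and 2.11-fold in lhy cca1. AT3G14200 rose by 1.42 ± 0.296 log2 from 15 to 60 min in WS (adjusted p = 0.00588) and by 2.40 ± 0.296 in lhy cca1 (adjusted p = 5.83e-05). AT3G14200 lost its WS call without 15 min WS replicate 2 (adjusted p = 0.0787) or 60 min WS replicate 2 (0.0795). AT3G14200 went on in each genotype. AT4G33040 rose by 1.61 ± 0.278 log2 from 15 to 60 min in WS (adjusted p = 0.00134) and by 1.28 ± 0.278 in lhy cca1 (adjusted p = 0.00797). AT4G33040 lost its lhy cca1 call without 60 min lhy cca1 replicate 1 (adjusted p = 0.115) or 15 min lhy cca1 replicate 2 (0.128). AT4G33040 did not pass in lhy cca1 without the 4 replicate 2 arrays of that genotype (adjusted p = 0.0685). AT1G80130 rose by 1.59 ± 0.264 log2 from 15 to 60 min in WS (adjusted p = 0.000881) and by 1.40 ± 0.264 in lhy cca1 (adjusted p = 0.00258). AT1G80130 lost its lhy cca1 call without 60 min lhy cca1 replicate 1 (adjusted p = 0.0513) or 15 min lhy cca1 replicate 2 (0.0656).

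The phosphatase gene AT3G62260 passed in both genotypes, but its calls rested on single arrays. AT3G62260 rose by 1.18 ± 0.271 log2 from 15 to 60 min in WS (adjusted p = 0.0121) and by 1.03 ± 0.271 in lhy cca1 (adjusted p = 0.0274). AT3G62260 lost its WS call without 15 min WS replicate 1 (adjusted p = 0.126) or 60 min WS replicate 1 (0.0763), and its lhy cca1 call without 60 min lhy cca1 replicate 1 (adjusted p = 0.125), 15 min lhy cca1 replicate 2 (0.344) or 60 min lhy cca1 replicate 2 (0.103). AT3G62260 did not pass in lhy cca1 without the 4 replicate 2 arrays of that genotype (adjusted p = 0.357). AT2G19650, AT2G15020 and AT3G23170 each passed in 1 genotype, and the difference between the genotypes was not past the threshold for any of them (interaction adjusted p = 1 for each). AT2G19650 differed by 0.48 ± 0.187 log2 from 15 to 60 min in WS (adjusted p = 0.151) and rose by 0.75 ± 0.187 in lhy cca1 (adjusted p = 0.019). AT2G19650 lost its lhy cca1 call without 60 min lhy cca1 replicate 1 (adjusted p = 0.133) or 15 min lhy cca1 replicate 2 (0.207). AT2G19650 did not pass in lhy cca1 without the 4 replicate 2 arrays of that genotype (adjusted p = 0.291). AT2G15020 differed by 0.65 ± 0.199 log2 from 15 to 60 min in WS (adjusted p = 0.0622) and rose by 1.13 ± 0.199 in lhy cca1 (adjusted p = 0.0015). AT2G15020 did not pass in lhy cca1 without the 4 replicate 2 arrays of that genotype (adjusted p = 0.071). AT3G23170 rose by 1.03 ± 0.266 log2 from 15 to 60 min in WS (adjusted p = 0.0257) and differed by 0.88 ± 0.266 in lhy cca1 (adjusted p = 0.0549). AT3G23170 lost its WS call without 15 min WS replicate 1 (adjusted p = 0.0878), 60 min WS replicate 1 (0.217) or 15 min WS replicate 2 (0.164).

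**Figure D4:**
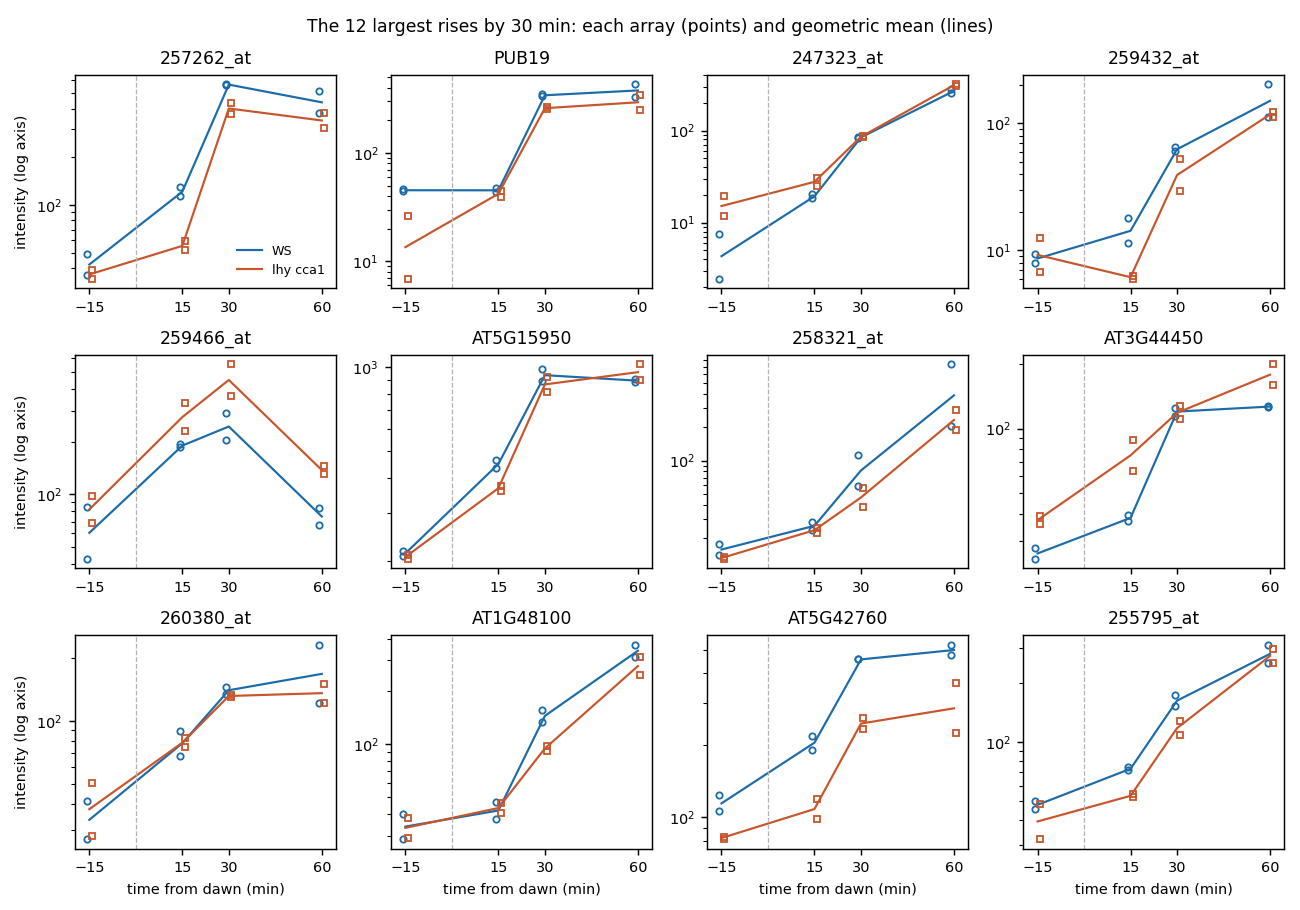
Signal (log axis, a scale of its own in each panel) is plotted against time from dawn for the 12 members with the largest rise by 30 min, with circles for WS arrays, squares for lhy cca1 arrays (drawn slightly apart), lines through geometric means and a dashed line at dawn. The courses differ after 30 min: 259466_at falls back in both genotypes, AT1G48100, 247323_at and 258321_at go on, and PUB19 and AT5G15950 stay.

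Among members without a listed gene, 257262_at had a rise by 30 min of 3.74 log2 in WS and 3.45 in lhy cca1. 257262_at read 49.3 and 36.3 before dawn, 113 and 129 at 15 min, 563 and 568 at 30 min, then 514 and 373 at 60 min on the WS arrays. In lhy cca1, 257262_at read 34.6 and 38.9 before dawn, 59.1 and 51.9 at 15 min, 436 and 369 at 30 min, then 375 and 303 at 60 min. At 15 min both WS arrays were above both lhy cca1 arrays, and after 30 min no further gain was seen in either genotype. 257262_at rose by 1.86 ± 0.185 log2 from 15 to 60 min in WS (adjusted p = 8.95e-06) and by 2.61 ± 0.185 in lhy cca1 (adjusted p = 3.4e-07). 260380_at was an early riser. 260380_at read 27.4 and 41.5 before dawn, 68.3 and 89.6 at 15 min, 135 and 145 at 30 min, then 121 and 232 at 60 min on the WS arrays. In lhy cca1, 260380_at read 28.4 and 50.7 before dawn, 74.7 and 82.8 at 15 min, 129.7 and 133 at 30 min, then 122 and 150.3 at 60 min. It had made more than 50% of its rise by 15 min, and its 60 min arrays in WS were far apart. 260380_at rose by 1.10 ± 0.291 log2 from 15 to 60 min in WS (adjusted p = 0.0294) and differed by 0.79 ± 0.291 in lhy cca1 (adjusted p = 0.13). 260380_at lost its WS call without 15 min WS replicate 1 (adjusted p = 0.225), 15 min WS replicate 2 (0.0604) or 60 min WS replicate 2 (0.253).

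Of the members that went on, 247323_at was dim before dawn. 247323_at read 7.57 and 2.47 before dawn, 18.4 and 20.3 at 15 min, 84.9 and 83.8 at 30 min, then 256 and 283 at 60 min on the WS arrays. In lhy cca1, 247323_at read 19.6 and 11.7 before dawn, 25.1 and 30.6 at 15 min, 86.3 and 84.9 at 30 min, then 318 and 304 at 60 min. At 30 min its signal stood at least 4.15-fold higher than before dawn in WS and 4.00-fold in lhy cca1, and at 60 min 13.2-fold in WS and 14.5-fold in lhy cca1. Of the 2 WS arrays at 15 min, 1 was below its 40th percentile. 247323_at rose by 3.80 ± 0.356 log2 from 15 to 60 min in WS (adjusted p = 6.22e-06) and by 3.49 ± 0.356 in lhy cca1 (adjusted p = 1.12e-05). 258321_at was also dim before dawn. 258321_at read 14.2 and 17.8 before dawn, 28.3 and 23.9 at 15 min, 114 and 58.8 at 30 min, then 734 and 203 at 60 min on the WS arrays. In lhy cca1, 258321_at read 13.2 and 13.5 before dawn, 25.01 and 22.5 at 15 min, 56.4 and 38.8 at 30 min, then 287 and 188 at 60 min. The WS replicates at 60 min differed several-fold from each other, and all 60 min arrays lay above all 30 min arrays. 258321_at rose by 3.89 ± 0.426 log2 from 15 to 60 min in WS (adjusted p = 1.91e-05) and by 3.29 ± 0.426 in lhy cca1 (adjusted p = 9.24e-05). 259432_at stayed dim longer. 259432_at read 9.42 and 7.92 before dawn, 11.4 and 17.9 at 15 min, 60.6 and 64.7 at 30 min, then 112 and 204 at 60 min on the WS arrays. In lhy cca1, 259432_at read 12.5 and 6.80 before dawn, 6.31 and 6.00 at 15 min, 52.1 and 29.6 at 30 min, then 113 and 123 at 60 min. It was dim also at 15 min in each genotype. From 15 to 60 min it rose at least 7.52-fold in WS (adjusted p = 1.36e-05) and at least 5.46-fold in lhy cca1 (adjusted p = 1.65e-06), from geometric means of 14.3 to 151 and of 6.15 to 118.

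Brighter members also went on. 249769_at read 90.8 and 109.9 before dawn, 118 and 124 at 15 min, 262 and 242 at 30 min, then 801 and 605 at 60 min on the WS arrays. In lhy cca1, 249769_at read 91.1 and 101 before dawn, 87.1 and 101 at 15 min, 151 and 202 at 30 min, then 571 and 477 at 60 min. No 60 min array came near a 30 min array, and the 15 min arrays lay close to those before dawn. 249769_at rose by 2.53 ± 0.175 log2 from 15 to 60 min in WS (adjusted p = 2.6e-07) and by 2.47 ± 0.175 in lhy cca1 (adjusted p = 3.4e-07). 255795_at went on in both genotypes as well. 255795_at read 50.3 and 45.5 before dawn, 71.6 and 74.5 at 15 min, 152 and 173 at 30 min, then 251 and 313 at 60 min on the WS arrays. In lhy cca1, 255795_at read 48.3 and 32.2 before dawn, 54.2 and 52.2 at 15 min, 128 and 108 at 30 min, then 296 and 253 at 60 min. Every 60 min array lay above every 30 min array. 255795_at rose by 1.94 ± 0.188 log2 from 15 to 60 min in WS (adjusted p = 7.4e-06) and by 2.36 ± 0.188 in lhy cca1 (adjusted p = 1.01e-06). 260956_at went on in WS by a smaller step. 260956_at read 358 and 395 before dawn, 487 and 554 at 15 min, 929.5 and 874 at 30 min, then 1286 and 1354 at 60 min on the WS arrays. In lhy cca1, 260956_at read 506 and 585 before dawn, 651 and 663 at 15 min, 1054 and 1037 at 30 min, then 1370.0 and 1322 at 60 min. This probe set had close replicates, and its step after 30 min was 0.55 log2 in WS and 0.36 in lhy cca1, on either side of the class limit. 260956_at rose by 1.34 ± 0.117 log2 from 15 to 60 min in WS (adjusted p = 3.37e-06) and by 1.04 ± 0.117 in lhy cca1 (adjusted p = 2.61e-05).

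The members that turned back had no listed gene, apart from AT2G40230. 259466_at read 43.02 and 84.8 before dawn, 194 and 186 at 15 min, 205 and 289.8 at 30 min, then 67.1 and 83.4 at 60 min on the WS arrays. In lhy cca1, 259466_at read 69.02 and 97.7 before dawn, 229 and 332 at 15 min, 366 and 551 at 30 min, then 130.1 and 146 at 60 min. It was high already at 15 min, reached its highest level at 30 min, and at 60 min all 4 arrays were below all 15 min arrays. 259466_at fell by 1.34 ± 0.286 log2 from 15 to 60 min in WS (adjusted p = 0.00698) and by 1.00 ± 0.286 in lhy cca1 (adjusted p = 0.0418). 259466_at lost its WS call without 15 min WS replicate 1 (adjusted p = 0.0581) or 60 min WS replicate 1 (0.051), and its lhy cca1 call without 60 min lhy cca1 replicate 1 (adjusted p = 0.19), 15 min lhy cca1 replicate 2 (0.384) or 60 min lhy cca1 replicate 2 (0.111). 259466_at did not pass in lhy cca1 without the 4 replicate 2 arrays of that genotype (adjusted p = 0.453). 254016_at turned back in both genotypes. 254016_at read 28.6 and 36.3 before dawn, 46.4 and 56.9 at 15 min, 93.1 and 122 at 30 min, then 54.99 and 25.7 at 60 min on the WS arrays. In lhy cca1, 254016_at read 44.2 and 70.2 before dawn, 66.5 and 63.96 at 15 min, 86.7 and 113 at 30 min, then 28.97 and 29.2 at 60 min. In lhy cca1 both 60 min arrays were below both arrays before dawn, whereas in WS the replicates at 60 min straddled them. 254016_at differed by -0.45 ± 0.297 log2 from 15 to 60 min in WS (adjusted p = 0.467) and fell by 1.17 ± 0.297 in lhy cca1 (adjusted p = 0.0227). 254016_at lost its lhy cca1 call without 15 min lhy cca1 replicate 1 (adjusted p = 0.126), 60 min lhy cca1 replicate 1 (0.103), 15 min lhy cca1 replicate 2 (0.122) or 60 min lhy cca1 replicate 2 (0.0941). 254016_at did not pass in lhy cca1 without the 4 replicate 2 arrays of that genotype (adjusted p = 0.27).

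254235_at was early as well and turned back in both genotypes. 254235_at read 50.02 and 53.00 before dawn, 73.6 and 108 at 15 min, 92.8 and 179 at 30 min, then 75.7 and 79.6 at 60 min on the WS arrays. In lhy cca1, 254235_at read 61.5 and 69.4 before dawn, 117 and 157 at 15 min, 164 and 202 at 30 min, then 70.7 and 106 at 60 min. The step down from 30 min was -0.73 log2 in WS and -1.07 in lhy cca1, and the 60 min arrays remained above those before dawn in each genotype. 254235_at differed by -0.20 ± 0.271 log2 from 15 to 60 min in WS (adjusted p = 0.772) and by -0.65 ± 0.271 in lhy cca1 (adjusted p = 0.195). 258742_at turned back in WS and stayed in lhy cca1. 258742_at read 36.4 and 37.3 before dawn, 34.9 and 34.5 at 15 min, 72.2 and 67.8 at 30 min, then 30.8 and 49.4 at 60 min on the WS arrays. In lhy cca1, 258742_at read 34.9 and 49.1 before dawn, 64.1 and 73.7 at 15 min, 95.02 and 135 at 30 min, then 78.8 and 134 at 60 min. In WS the 60 min arrays overlapped those before dawn, whereas in lhy cca1 they were well above. 258742_at differed by 0.17 ± 0.267 log2 from 15 to 60 min in WS (adjusted p = 0.815) and by 0.58 ± 0.267 in lhy cca1 (adjusted p = 0.244). 257053_at lay at the class limit. 257053_at read 152 and 145 before dawn, 179 and 139 at 15 min, 350.4 and 333 at 30 min, then 259.9 and 229.5 at 60 min on the WS arrays. In lhy cca1, 257053_at read 97.6 and 102 before dawn, 123 and 106 at 15 min, 238 and 218 at 30 min, then 144 and 190.1 at 60 min. Its step down of -0.48 and -0.46 log2 stayed just short of the limit in both genotypes. 257053_at rose by 0.63 ± 0.161 log2 from 15 to 60 min in WS (adjusted p = 0.0232) and differed by 0.54 ± 0.161 in lhy cca1 (adjusted p = 0.0538). 257053_at lost its WS call without 60 min WS replicate 1 (adjusted p = 0.121) or 15 min WS replicate 2 (0.267).

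The other 18 members without a single listed gene are 245152_at, 245219_at, 245306_at, 249383_at, 252429_at, 252516_at, 253496_at, 253835_at, 256069_at, 257858_at, 258133_at, 258677_at, 259042_at, 259231_at, 261191_at, 261266_at, 262590_at and 263739_at. Their rises by 30 min lay between 0.82 and 1.79 log2 in WS (median 1.09) and between 0.85 and 1.35 in lhy cca1 (median 1.07). 245306_at, 258133_at and 261191_at went on in both genotypes, 253496_at and 263739_at in lhy cca1 alone, 252516_at turned back in WS, and the others stayed. From 15 to 60 min, 13 of the 18 rose in WS, by 0.74 to 2.1 log2, and 13 in lhy cca1, by 0.65 to 2.05, all with an adjusted p under 0.05 in limma. The 5 that did not pass were 245152_at, 245219_at, 249383_at, 252516_at and 257858_at in both genotypes, with differences of 0.01 to 0.82 in WS and -0.02 to 0.68 in lhy cca1. On leaving out 1 array, 4 of the 13 rises in WS and 7 in lhy cca1 were lost at least once, and 253496_at, 253835_at, 256069_at and 259231_at lost theirs in both genotypes. Without the 4 lhy cca1 replicate 2 arrays 6 of the 13 rises in lhy cca1 and 12 in WS passed, and those lost were 252429_at, 253496_at, 253835_at, 256069_at, 258677_at, 259231_at and 261266_at in lhy cca1 and 253835_at in WS.

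The mutant comparison asks whether these transcripts depend on LHY and CCA1, and only the arrays at 15 and 60 min could be tested. At 15 min, 3 members were higher in lhy cca1 and 5 lower, where 1.14% and 0.585% of all tested probe sets were, and at 60 min 1 was higher and 2 lower, where 2.39% and 1.01% were. The remaining 45 and 50 members did not pass, which does not show that they were alike. The median genotype difference over members was -0.11 log2 at 15 min and -0.04 at 60 min (0.02 and 0.03 over all tested). Higher at 15 min were AT3G44450, by 0.97 ± 0.179 log2 (adjusted p = 0.0121), 256266_at, by 0.75 ± 0.148 log2 (adjusted p = 0.0165), and 251272_at, by 0.78 ± 0.171 log2 (adjusted p = 0.0289). The 5 lower were 257262_at, at -1.13 ± 0.185 log2 (adjusted p = 0.00513), AT3G48460, at -1.32 ± 0.232 log2 (adjusted p = 0.00847), and AT5G42760, at -0.92 ± 0.185 log2 (adjusted p = 0.0181), with AT1G65870 at -1.08 ± 0.221 log2 (adjusted p = 0.021) and 262883_at at -1.09 ± 0.255 log2 (adjusted p = 0.0408). At 60 min 258742_at was higher, by 1.40 ± 0.267 log2 (adjusted p = 0.00833), and AT1G65870, at -1.08 ± 0.221 log2 (adjusted p = 0.0126), and AT5G42760, at -0.81 ± 0.185 log2 (adjusted p = 0.0236), were lower.

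The members called for genotype and not yet described are 256266_at, 251272_at and 262883_at. 256266_at read 78.8 and 93.6 before dawn, 157 and 186 at 15 min, 366 and 401 at 30 min, then 430.2 and 467 at 60 min on the WS arrays. In lhy cca1, 256266_at read 174 and 179 before dawn, 276 and 299.9 at 15 min, 317 and 402 at 30 min, then 344 and 384 at 60 min. Before dawn and at 15 min both lhy cca1 arrays were above both WS arrays, and from 30 min the genotypes overlapped or WS was higher. 256266_at rose by 1.39 ± 0.148 log2 from 15 to 60 min in WS (adjusted p = 1.52e-05) and differed by 0.34 ± 0.148 in lhy cca1 (adjusted p = 0.218). 251272_at was higher in the mutant at the earlier times. 251272_at read 91.5 and 105 before dawn, 84.9 and 98.2 at 15 min, 265 and 224 at 30 min, then 363 and 287 at 60 min on the WS arrays. In lhy cca1, 251272_at read 146 and 168 before dawn, 169 and 146 at 15 min, 311 and 295 at 30 min, then 447 and 334 at 60 min. Both lhy cca1 arrays lay above both WS arrays up to 30 min, and at 60 min the genotypes overlapped. 251272_at rose by 1.82 ± 0.171 log2 from 15 to 60 min in WS (adjusted p = 6.22e-06) and by 1.3 ± 0.171 in lhy cca1 (adjusted p = 0.000106). 262883_at was lower in the mutant. 262883_at read 570.4 and 518 before dawn, 436 and 707 at 15 min, 891 and 1074 at 30 min, then 1126 and 1732 at 60 min on the WS arrays. In lhy cca1, 262883_at read 217 and 173 before dawn, 316 and 216 at 15 min, 519 and 388 at 30 min, then 916 and 648 at 60 min. Every lhy cca1 array was below every WS array of its time. 262883_at rose by 1.33 ± 0.255 log2 from 15 to 60 min in WS (adjusted p = 0.00304) and by 1.56 ± 0.255 in lhy cca1 (adjusted p = 0.000783). 262883_at lost its WS call without 15 min WS replicate 1 (adjusted p = 0.0738).

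These genotype calls were sensitive to the arrays and settings used. At 60 min, all 3 were lost without replicate 2 of lhy cca1 at 60 min (adjusted p = 0.127 for 258742_at, 0.14 for AT1G65870 and 0.268 for AT5G42760), 258742_at also without WS 60 min replicate 1 (0.0601), and AT1G65870 and AT5G42760 also without WS 60 min replicate 2 (0.0603 and 0.0884). At 15 min each of the 8 calls was lost on leaving out at least 1 array. The call on 257262_at was lost without 15 min WS replicate 2 (adjusted p = 0.0609) or 15 min lhy cca1 replicate 2 (0.103). AT3G48460 did not pass without 15 min WS replicate 1 (adjusted p = 0.0734), 15 min WS replicate 2 (0.0711) or 15 min lhy cca1 replicate 2 (0.166). The call on AT5G42760 was lost without 15 min WS replicate 1 (adjusted p = 0.0872), 15 min WS replicate 2 (0.136), 15 min lhy cca1 replicate 1 (0.0512) or 15 min lhy cca1 replicate 2 (0.247). AT1G65870 did not pass without 15 min WS replicate 1 (adjusted p = 0.0775), 15 min WS replicate 2 (0.164) or 15 min lhy cca1 replicate 2 (0.311). The call on 262883_at was lost without 15 min WS replicate 2 (adjusted p = 0.307), 15 min lhy cca1 replicate 1 (0.0571) or 15 min lhy cca1 replicate 2 (0.426). AT3G44450 did not pass without 15 min WS replicate 1 (adjusted p = 0.0812), 15 min WS replicate 2 (0.0891) or 15 min lhy cca1 replicate 1 (0.155). The call on 256266_at was lost without 15 min WS replicate 1 (adjusted p = 0.187), 15 min lhy cca1 replicate 1 (0.0796) or 15 min lhy cca1 replicate 2 (0.196). 251272_at did not pass without 15 min WS replicate 1 (adjusted p = 0.232), 15 min WS replicate 2 (0.0796), 15 min lhy cca1 replicate 1 (0.214) or 15 min lhy cca1 replicate 2 (0.132). With the fit on only the 8 arrays at 15 and 60 min, 4 of the 8 calls at 15 min were lost (adjusted p = 0.0776 for AT5G42760, 0.0833 for 251272_at, 0.0681 for AT1G65870 and 0.102 for 262883_at), and AT5G42760 at 60 min (0.0857). With no intensity trend in limma, AT3G48460 and 256266_at were lost at 15 min too (adjusted p = 0.053 and 0.0569), 6 in all with those 4, and AT5G42760 at 60 min (0.066). With no filter 262883_at was lost at 15 min (adjusted p = 0.0637). Without the 4 lhy cca1 replicate 2 arrays, whose ribosomal control signal was high, only AT3G44450 passed at 15 min and no member at 60 min. The sign was the same at all 4 times for AT5G42760, AT1G65870, AT3G48460, 262883_at, 257262_at, 258742_at and 251272_at, though the arrays before dawn and at 30 min also chose the members. Members without a genotype call, such as 259042_at, AT1G80130 and 249769_at, kept the same sign as well, so this adds nothing to the calls.

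**Figure D5:**
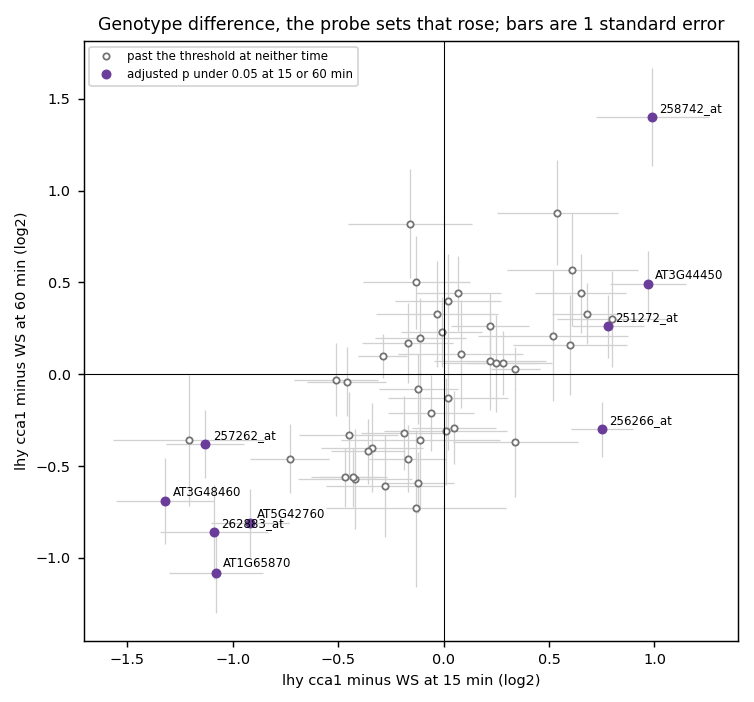
The difference lhy cca1 minus WS (log2) at 15 min (x axis) and at 60 min (y axis) is shown for 53 probe sets, with bars of 1 standard error from limma. Filled points had an adjusted p under 0.05 at 15 or 60 min. AT5G42760 and AT1G65870 are low and passed at both times, 258742_at is high at both but passed only at 60 min, and most open points lie around 0.

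Whether the change from 15 to 60 min itself differed between the genotypes was tested as an interaction in limma. It passed for 0 of 53 members and for 0 of all 14878 tested probe sets (0% in either direction), with 5 members and 630 probe sets at an unadjusted p under 0.05. 256266_at was the nearest, at -1.05 ± 0.209 log2 (adjusted p = 0.564). Because members were chosen to rise in both genotypes, the count among them does not show whether dawn rises depend on LHY and CCA1.

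For the pathways that answer to light, hormones and sugar at dawn, 9 lists of 130 genes were drawn up from textbook knowledge, of which 14 genes were paired with a probe set here, 13 were tested and 1, AT5G15950, was a member. Of 27 regulators of light signalling only HYH, a bZIP partner of HY5, was paired. HYH rose from 15 to 60 min by 0.74 ± 0.168 log2 in WS (adjusted p = 0.0109) and differed by 0.36 in lhy cca1 (adjusted p = 0.259), and its rise by 30 min of 0.71 and 0.46 was below the limit for members. None of 15 light-induced target genes, 10 photoreceptor genes or 7 heat shock genes was paired. Of 24 clock genes 2 were. GI, the gene of the evening clock protein GIGANTEA, was dim in WS until 30 min, with a mean of 15.15 at that time that kept it out of the set, and reached 80.4 and 92.3 at 60 min. In lhy cca1 GI read 54.5 and 57.5 at 30 min and 361 and 405.5 at 60 min. GI rose from 15 to 60 min in WS and in lhy cca1 (adjusted p = 5.95e-05 and 3.6e-06), and in lhy cca1 also without its 4 replicate 2 arrays (adjusted p = 0.00589). AT5G52660, related to LHY and CCA1, rose by 1.02 ± 0.224 in lhy cca1 (adjusted p = 0.0083, but 0.328 without the 4 replicate 2 arrays) and differed by 0.72 in WS (adjusted p = 0.0645).

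Of 16 rapid stress regulators, STZ was paired and did not pass in either genotype (adjusted p = 0.368 and 0.949). Of 14 rapid auxin response genes 3 were tested and 0 rose. WES1, which conjugates auxin to amino acids, fell by 0.66 ± 0.167 in WS (adjusted p = 0.0224) and differed by -0.39 in lhy cca1 (adjusted p = 0.204). Of 10 sugar starvation genes 3 were tested, and AKINBETA1, whose product is part of SnRK1, a kinase that senses energy shortage, fell by 1.93 ± 0.222 in WS and 1.87 ± 0.222 in lhy cca1 (adjusted p = 2.96e-05 and 4.04e-05, the latter 0.00418 without the 4 replicate 2 arrays). The others, IVD (0.07 and 0.08) and MCCA (-0.70 and -0.61), did not pass in either genotype. Of 7 polyamine synthesis genes 3 were tested. AT5G15950 rose in both genotypes, while the other S-adenosylmethionine decarboxylase genes, SAMDC (0.40 and -0.03) and AT3G25570 (-0.22 and -0.24), did not pass in either.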

How the data were processed

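RNA of whole seedlings was hybridised to ATH1 arrays, 1 per sample, after one-cycle labelling per the labels' protocols. The deposited values are signal intensities on a linear scale, 1 per probe set, made with MAS5 and GCOS per the submitters' processing notes, with versions not given in the sources used here. The authors scaled each array to a common trimmed mean, as the deposited intensities themselves show. With 2 arrays per group, the number of arrays limits the precision. Here log2 was taken with no offset and no further normalization, 64 control probe sets were left out, and probe sets above the 40th percentile of their array on at least 2 of 16 arrays were tested. A model of 8 group means was fitted in limma (version 3.58.1, R 4.3.3) with an intensity trend, and p-values were adjusted by Benjamini-Hochberg over 14878 probe sets at 0.05. The fit was tested on 5 simulated data sets, with 200 probe sets changed in WS at 60 min. Against 15 min, 61.6% of 2-fold and 94.6% of 4-fold changes were recovered, with a mean of 8.2 false calls. A member that did not pass may therefore still have changed.

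Members and gene lists were chosen with earlier results of these data known. Tests used only contrasts among the 8 arrays at 15 and 60 min. The rule for fully described genes took the 12 members with the largest rise by 30 min, the 6 highest and 6 lowest changes from 30 to 60 min, the 5 smallest adjusted p in each direction of a contrast, and up to 4 members of a list. GEO's platform annotation, with symbols updated from the TAIR10.1 annotation, left 8730 probe sets without a gene, gave 503 more than one and 13513 exactly 1. Gene roles are background knowledge. Groups followed the sample labels. Alternatives were other scalings, an offset, other filters, fewer arrays, no trend and the replicate number as a block. A search of promoters for motifs was not run, and no sequences are shown.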

Additional observations from a re-analysis of the deposited data

How the results depend on the processing

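No alternative turned the direction of a called member: of 1196 refits of 92 single-member calls, 1053 passed again and 143 did not. Settings of the fit also cost calls from 15 to 60 min. In WS, 253835_at and 257053_at were lost with only the 8 arrays at 15 and 60 min. With no trend, those and AT3G23170, 259231_at and 260380_at were lost in WS, and AT3G62260, 254016_at, 259466_at and 261266_at in lhy cca1. With no filter, 253835_at and AT3G23170 were lost in WS, and AT3G62260 and 259466_at in lhy cca1. Median centring cost 259466_at in lhy cca1. Leaving out 1 array at a time gave 557 to 986 calls between 15 and 60 min in WS (1030 with all), with 0 to 2 members lower, and the count was 571 without WS 15 min replicate 1 and 557 without WS 15 min replicate 2. In lhy cca1 it gave 466 to 799 (1084 with all), with 0 to 1 member lower, and the counts were 616 without 15 min replicate 1, 662 without 60 min replicate 1 and 466 without 15 min replicate 2. The genotype difference at 60 min ranged over 141 to 480 calls (505 with all), the lowest without lhy cca1 60 min replicate 2, with 0 to 2 members higher and 0 to 3 lower. At 15 min it ranged over 25 to 88 (257 with all), with 0 to 1 member higher and 0 to 3 lower: 46 without WS 15 min replicate 1, 88 without WS 15 min replicate 2 and, of lhy cca1 at 15 min, 80 without replicate 1 and 25 without replicate 2. The number that turned back in lhy cca1 ranged over 4 to 6, against 3 with all arrays. The refits have fewer samples, and no other cause was tested.

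Without the 4 lhy cca1 replicate 2 arrays, an alternative chosen after seeing the data, lhy cca1 had 316 calls between 15 and 60 min with 0 members lower, the genotype difference had 79 calls at 60 min (0 members higher and 0 lower) and 35 at 15 min (1 higher and 0 lower), and the interaction had 1 call. With the fit on only the 8 arrays at 15 and 60 min, the genotype difference had 230 calls at 60 min (2 members higher and 1 lower). It had 113 at 15 min (2 members lower, with AT3G44450 and 256266_at still higher). With no trend it had 317 calls at 60 min (1 member lower, with 258742_at still higher) and 83 at 15 min (1 higher and 1 lower). From 15 to 60 min 0 members then fell in lhy cca1. With median centring or no filter 1 member fell there instead of 2, and with an offset of 16 the interaction had 2 calls. A limit of 1 log2 on the rise left 32 of 53 members. The cause of these shifts was not tested.

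Samples with the same replicate number deviated together at r = 0.16 between 15 and 60 min in WS, 0.09 in lhy cca1, and between genotypes 0.12 at 60 min and 0.10 at 15 min, so the numbers were not taken to pair the samples. With the replicate number as a block, 1270 probe sets were called between 15 and 60 min in WS and 1302 in lhy cca1, with 40 and 42 members higher. The block gave 434 genotype calls at 15 min, with 5 members higher, and the members called lower without it passed again. It gave 2 members higher and 5 lower at 60 min, and 3 interaction calls, 1 of them a member that was lower. Signals near the 40th percentile limit what can be said of levels before dawn.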
